A study of Mus musculus with 6 samples.

Results

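The deposited small RNA table of mouse prefrontal cortex lists 140 distinct sequences whose only names are those of miRNAs of other animals, out of 1013 distinct sequences in all. They were chosen by name: every listed sequence with a name that carries neither the mouse prefix mmu nor the prefix PC of the predicted sequences, and that stands under no mouse name as well. Of the others, 772 have a mouse name and the rest are predicted ones. The 140 sequences came from 168 of the 1115 analysed lines of the table, and lines with the same sequence were added up. Names of 16 species were used, most often human (hsa, 35 sequences), platypus (oan, 17), cow (bta, 16), opossum (mdo, 13) and Chinese hamster (cgr, 11).

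The samples were prefrontal cortex from male C57BL/6 mice at 30 weeks of age, 6 libraries in all. The 3 control libraries came from mice gavaged with water, at a dose of 0 mg per kg, and the 3 PS-NP libraries from mice gavaged with polystyrene nanoparticles at 50 mg per kg. Gavage was daily over 6 months in both groups. Total RNA was made into TruSeq Small RNA libraries, and the table gives estimated read counts for each sequence and library. The labels do not say whether the libraries are from different animals, so a p-value here reflects library-to-library spread alone, which may be technical.

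A miRNA is cut from a hairpin RNA, and its seed, here bases 2 to 8 from its 5′ end, pairs with target messenger RNAs. Cells also make isomiRs, copies of a miRNA with other ends, with bases added at the 3′ end after cutting, or with an edited base. When a read is matched to the known miRNAs of many animals, it takes the name of an entry it resembles. An isomiR, a sequencing error or a piece of another abundant RNA can thus carry the name of a miRNA unknown in the mouse. Pieces of tRNA are a well known source of such names, and a mature tRNA ends in the letters CCA, which an enzyme adds to its 3′ end.

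Besides a species and a miRNA, the names record changes: L and R followed by a number for bases gained or lost at the 5′ and 3′ ends, and ss for substitutions, with their position and the base before and after. This reading was tested on names whose unchanged form is also in the table, and it held for 10 of 10 end changes and 9 of 9 substitutions. Of the 140 sequences, 51 had an ss name, 88 had a change of ends, 23 had a plain name and 22 were named as an arm of a precursor rather than a known mature miRNA. The largest of 70 name families were miR-1260 with 12 sequences, miR-125 and miR-378 with 6 each and miR-328 with 5.

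The sequence that held the most reads is shown first, beside the mouse mature sequence of the same arm from RefSeq (GRCm38.p6), with the seed of each in capitals, because the start of the molecule sets the seed.
rno-miR-485-3p: cATACACGgctctcctctcttc
mmu-miR-485-3p (RefSeq): aGTCATACacggctctcctctc

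Of the 8 sequences of 18 bases that end in CCA, from several name families, 6 are shown with those letters in capitals, because this end is what they share.
bta-miR-2478_L-2: atcccacttctgacaCCA
cgr-miR-1260: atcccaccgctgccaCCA
cgr-miR-1260_1ss9GT: atcccacctctgccaCCA
hsa-miR-7977_1ss6AG: ttcccggccaacgcaCCA
oan-miR-1386: ctcctggctggctcgCCA
hsa-miR-4454_L-2: atccgagtcacggcaCCA

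Variants of mouse miRNAs that carry added bases are shown with those bases in capitals, each before the mouse sequence listed in the same table. They are shown because the added bases, taken as a whole, are not the neighbouring letters of the mouse hairpins.
mdo-miR-181a-5p_R+3_2: aacattcaacgctgtcggtgagtTTT
mmu-miR-181a-5p: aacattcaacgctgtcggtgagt
oan-let-7b-5p_L+2: AAtgaggtagtaggttgtgtggtt
mmu-let-7b-5p: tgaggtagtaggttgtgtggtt
dno-miR-433-3p_L+2: AAatcatgatgggctcctcggtgt
mmu-miR-433-3p: atcatgatgggctcctcggtgt
cja-miR-369-5p_L+2R-1: AAagatcgaccgtgttatattc
mmu-miR-369-5p: agatcgaccgtgttatattcgc

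Variants with 1 or 2 mismatches to a mouse miRNA are shown with the differing base in capitals, at the 3′ end first and then inside the molecule, because the place of the mismatch differs among them.
bta-miR-339a_1ss22CT: tccctgtcctccaggagctcaT
mmu-miR-339-5p: tccctgtcctccaggagctcacg
cpo-miR-16a-5p_R-1_1ss21TA: tagcagcacgtaaatattggA
chi-miR-16a-5p_1ss22GA: tagcagcacgtaaatattggAA
mmu-miR-16-5p: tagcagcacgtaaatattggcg
mdo-miR-22-3p: aagctgccagttgaagaactgC
mmu-miR-22-3p: aagctgccagttgaagaactgt
tch-miR-26a-2-5p: ttcaagtaaCccaggataggct
mmu-miR-26a-5p: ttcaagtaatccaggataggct

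Library totals ran from 6170649 to 9905745 reads, and the 140 sequences held 123374 reads over the 6 libraries. The cortex label fits its markers: miR-124-3p, a neuronal miRNA, ran from 32331 to 51379 CPM (reads per mega-read of scaled library size), miR-9-5p from 22305 to 33621 and miR-128-3p from 91706 to 129680. Lower on the neuronal list were miR-132-3p at 4408 to 9261 CPM and miR-138-5p at 489 to 626. Of the liver markers, miR-122-5p was at 4.68 to 8.25 CPM, miR-192-5p at 40.2 to 77.1 and miR-194-5p at 123 to 173. Of the muscle markers, miR-206-3p was at 1.22 to 2.17 CPM, miR-1a-3p at 24.4 to 40.3 and miR-133a-3p at 77.4 to 154. Among red cell markers, miR-451a was at 37.1 to 91.9 CPM and miR-486b-5p at 564 to 1043. The red cell markers miR-144-5p and miR-144-3p reached at most 0.634 and 0.694 CPM. A pair of libraries stood apart in these names. Control 3 alone held 11 of the listed sequences and had the lowest level of the CCA-ending ones, and PS-NP 1 alone held another 11 and had a high level of a single form of miR-1260. Sequences found in a single library could not be tested whatever their abundance, because a test needed reads in at least 3 libraries. Differences of the named members are given without a library where it moves them.

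The 140 sequences differed in length from those with mouse names. They ran from 18 to 26 bases with a median of 22, but 14.3% were 18 bases long, against 1.42% of mouse-named sequences, and 12.9% were 24 bases long, against 4.15%. Only 18.6% had 22 bases, the usual miRNA length, against 44.2% of mouse-named sequences. Their letters differed at the end too, since 13 of them (9.29%) ended in CCA, against 10 mouse-named sequences (1.30%). These shares describe the table, and each sequence counts once whatever its reads.

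**Figure D1:**
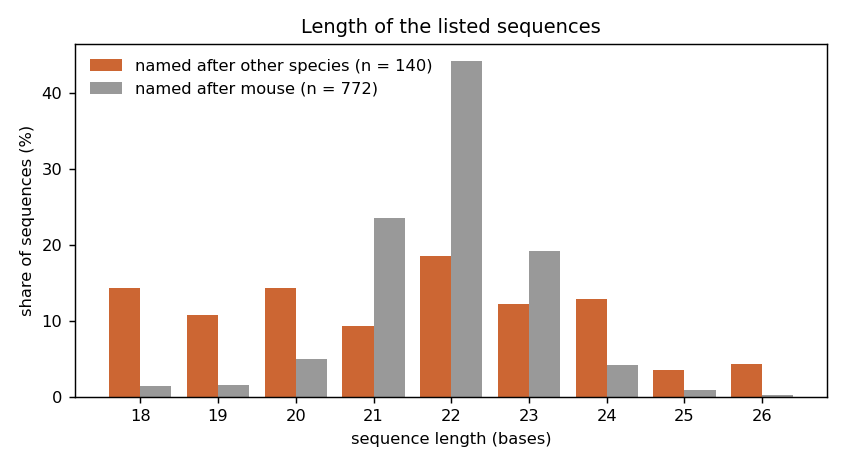
Share of sequences (%, vertical axis) at each length in bases (horizontal axis) for the 140 sequences named after other species and the 772 named after mouse. The other-species names have an excess at 18 bases (14.3% against 1.42%) and a shortage at 22 bases (18.6% against 44.2%).

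Each sequence was laid against every mouse-named sequence without gaps, over at least 15 bases and with starts at most 4 bases apart. Of the 140, 41 matched a mouse-named sequence with no mismatch and differed only in their ends, 33 had 1 mismatch, 9 had 2 mismatches, and 57 had no listed mouse relative within 2 mismatches. Among the 83 with a relative, 67 kept its seed and 16 had another seed. The ss suffix did not follow this division, since it stood in the names of 7, 11, 6 and 27 sequences of the 4 classes. A substitution in the name is counted against another animal's miRNA, and 7 sequences with such a name differed from a mouse-named sequence only at their ends. The 57 without a relative were shorter, with a median of 20 bases against 24 for those with other ends, and had a median GC content of 60%.

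Some of the 57 without a relative matched other mouse RNAs exactly. Of the 140 sequences, 2 lay inside a RefSeq mouse miRNA hairpin, rno-miR-485-3p in Mir485 and rno-miR-374-3p_2ss8CG19TC in Mir374b, and both were without a listed relative. Counting these, 20 sequences stood letter for letter in a GENCODE mouse transcript, all of them without a listed relative. Some of the other matches also include genes that GENCODE annotates as miRNA genes. These are matches of bta-mir-2887-1-p5, rno-miR-2985, hsa-miR-1248_R-4 and names of the miR-1285 family. None of the 83 with a relative lay inside a RefSeq mouse hairpin, but a sequence that does could carry a mouse name and be left out. Mitochondrial tRNAs are among the GENCODE transcripts, but no nuclear tRNA sequence and no whole genome was searched.

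Most of the 140 were rare. Reads stood in all 6 libraries for 64 of them (45.7%), against 68.7% of mouse-named sequences, and in 1 library for 35 (25%), against 12.0%. Between 87 and 96 of them had reads in any 1 library. A listed 0 may still stand for a few reads, because of 3981 whole values above 0 for sequences on 1 line, 256 were exactly 5 and 18 were lower. The reads were concentrated: the most abundant sequence held 35.8% of the members' reads, the 5 most abundant held 69.4% and the 12 most abundant held 82.9%.

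Summed by group, the CPM in every library showed where the reads lay. The Mir485 arm held 35.8% of the reads, the names of the CCA-ending families 23.8%, the sequences with other ends than a mouse miRNA 20.9%, and those matching 7SL RNA 9.40%. The remaining groups were small. The 27 others without a relative summed to 20.3 to 71.8 CPM, and control 2 was highest. Their 3.54-fold span was the widest of all groups. Sequences with 1 mismatch outside the CCA families, 30 in number, summed to 126 to 177 CPM, and those with 2 mismatches to 57.5 to 75.3. The 5 that match small nucleolar RNAs summed to 5.10 to 8.96 CPM.

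**Figure D2:**
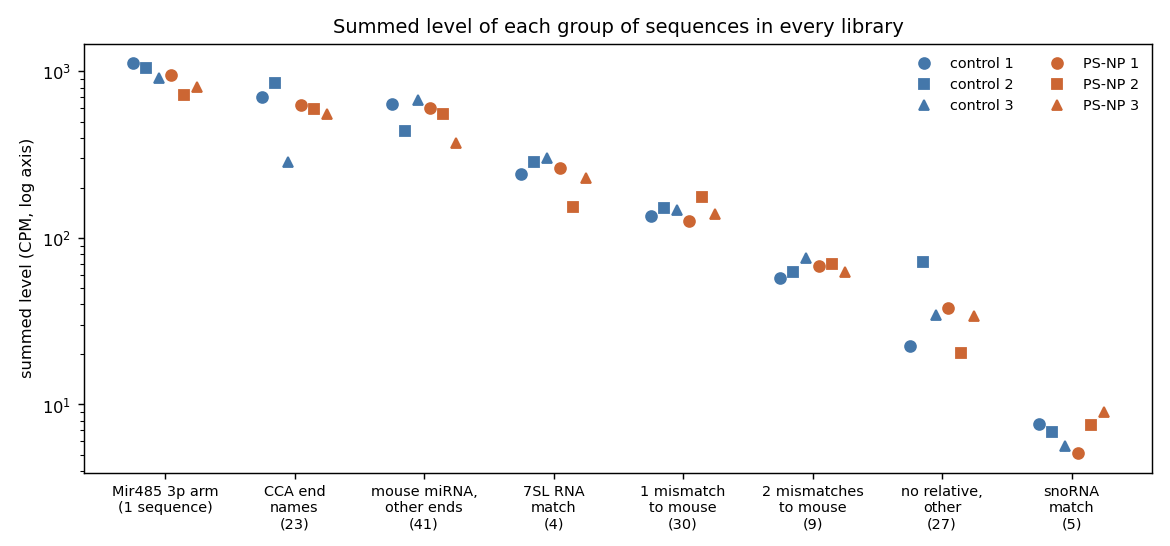
Summed level (CPM, log axis) of 8 groups of sequences in each of the 6 libraries, with control in blue and PS-NP in orange and the number of sequences under each group. The libraries lie close together in most groups. Control 3 is the lowest point of the CCA-ending names at 285 CPM. Control 2 is the highest point of the others without a relative at 71.8 CPM.

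The most abundant name, rno-miR-485-3p, is a rat name for a product of the mouse Mir485 hairpin. Mir485 belongs to the imprinted miRNA cluster on mouse chromosome 12, and the sequence lies at chr12:109734949-109734970 on the plus strand (GRCm38.p6), in an exon of the long noncoding RNA Mirg. The RefSeq mouse mature sequence of this arm lies at chr12:109734946-109734967, so the molecule listed here starts 3 bases later and has another seed, as the printed pair shows. It ranked number 82 among the 1013 sequences by level.

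In the control libraries rno-miR-485-3p stood at 1116, 1051 and 919 CPM, and in PS-NP libraries at 948, 719 and 806. Control 1 and control 2 were above every PS-NP library, but control 3 was below PS-NP 1, so the groups overlap. The means were 1028 ± 100.3 CPM (SD, n = 3) and 824.5 ± 115 (SD, n = 3). The fitted log2 difference, PS-NP minus control, was −0.32 with a 95% interval of −0.71 to 0.07, and an adjusted p of 0.906 by the quasi-likelihood test of edgeR (Benjamini-Hochberg). The other arm of the same hairpin, listed under its mouse name as mmu-miR-485-5p_R+1, stood at 820, 825 and 640 CPM in control and 681, 673 and 556 in PS-NP. The ratio of the 3p to the 5p arm was 1.36, 1.27 and 1.44 in control and 1.39, 1.07 and 1.45 in PS-NP, so both arms were lower on average in PS-NP, with neither difference past the test.

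The second large group joined names of the families miR-1260, miR-1386, miR-2478, miR-4286, miR-4454 and miR-7977. All 23 of its sequences hold the letters CCA at the end or followed by at most 3 bases: 10 end exactly in CCA, and of the 13 with bases after it, 11 carry only A and T there. The 8 sequences of 18 bases all end in CCA and held 94.7% of the group's reads. Exact GENCODE matches were found for 2 of the 23: hsa-miR-7977_1ss6AG in the long noncoding RNAs Gm12505 and Gm29371, and hsa-miR-4286_R+1 in 6 genes. The group was put together after the sequences were seen, so its levels are a description with no test.

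Summed, the 23 sequences stood at 704, 857 and 285 CPM in control and at 632, 594 and 557 in PS-NP. Control 3 was the lowest library and control 2 the highest, 3.01 times as high. The control mean was 615 ± 296 CPM (SD, n = 3) and the PS-NP mean 594 ± 37.5 (SD, n = 3). Without control 3 the control mean was 781 CPM.

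The 3 most abundant sequences of this kind shared their lowest library. The level of bta-miR-2478_L-2, named after a cow entry, was 263, 310 and 94.8 CPM in control and 226, 229 and 202 in PS-NP. That of cgr-miR-1260, a hamster name, was 210, 278 and 89.7 CPM in control and 117, 181 and 163 in PS-NP. For hsa-miR-7977_1ss6AG, a human name, it was 96.8, 88.2 and 39.7 CPM in control and 75.0, 54.8 and 76.5 in PS-NP. Each was lowest in control 3, and in each the control and PS-NP libraries overlap. Their fitted log2 differences were −0.02, −0.32 and −0.12, and without control 3 they were −0.39, −0.67 and −0.43.

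Less abundant CCA names were lowest in control 3 as well. The level of oan-miR-1386, a platypus name, was 53.0, 54.4 and 19.5 CPM in control and 41.3, 44.0 and 44.5 in PS-NP. The level of hsa-miR-4454_L-2 was 9.48, 9.07 and 4.35 CPM in control and 11.4, 9.02 and 15.8 in PS-NP, and unlike the abundant names it had a positive fitted log2 difference, 0.65, or 0.38 without control 3 and 0.39 without PS-NP 3. The level of hsa-miR-4286_R+1 was 22.3, 31.2 and 10.2 CPM in control and 22.1, 23.6 and 17.4 in PS-NP. Of the 8 sequences of 18 bases, 7 were lowest in control 3. Over these 7 the mean of the other 5 libraries was 1.97 to 5.26 times the control 3 level. The median of this ratio over all 639 tested sequences was 1.02. Over all tested sequences 11.9% were lowest in control 3. A mouse-named sequence with the same end, mmu-miR-3968_L-3_1ss14AT, was low in that library too, at 68.5 CPM against 108 to 163 in the others.

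The eighth, cgr-miR-1260_1ss9GT, went another way. Its level was 10.1, 14.6 and 7.90 CPM in control and 83.7, 11.1 and 7.33 in PS-NP, so 1 library of 6 stood far above the rest. Its share of the summed level of the 3 listed 18-base forms of miR-1260 was 4.35%, 4.72% and 7.93% in control and 40.2%, 5.48% and 4.10% in PS-NP. The fitted log2 difference was 1.64 with an SE of 0.82, and it was −0.24 without PS-NP 1. A further 6 miR-1260 sequences, under 4 names when numbered entries count as 1, had reads in PS-NP 1 alone, led by hsa-miR-1260b_R+1_1ss9AT with 76 reads. The 4 sequences that share this base summed to 100.2 CPM in PS-NP 1 and to 7.33 to 14.6 in the other 5 libraries. The part of this library in the difference was not tested beyond leaving it out.

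**Figure D3:**
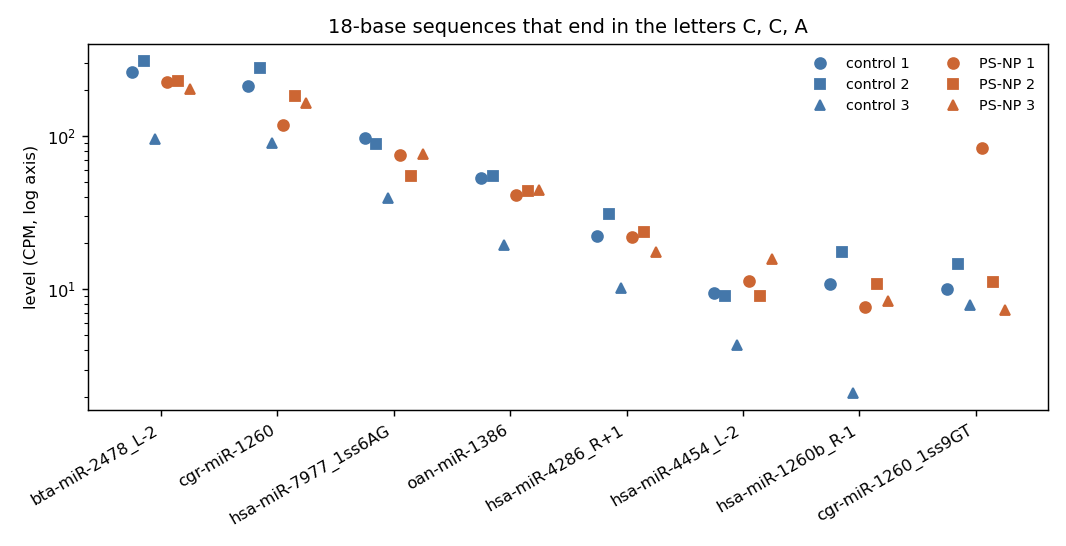
Level (CPM, log axis) of the 8 sequences of 18 bases that end in CCA, in each of the 6 libraries, with control in blue and PS-NP in orange. Control 3 is the lowest point for 7 of them, and PS-NP 1 stands at 83.7 CPM for cgr-miR-1260_1ss9GT, where the others are at 7.33 to 14.6.

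Names of the miR-1285 family belonged to 7SL RNA, the RNA of the signal recognition particle that brings new secreted proteins to the membrane. The 4 sequences of this group stand in the mouse 7SL genes Rn7s1 at chr12:69159295-69159594 on the plus strand and Rn7s2 at chr12:69361182-69361481 on the minus strand (GRCm38.p6). Of them, 3 match further genes too, with genes annotated as miRNA genes among them. The most abundant is shown to let the name be compared with the RNA.
ssc-mir-1285-p3: acatagcgagaccccgtctctt

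The level of ssc-mir-1285-p3 was 236, 249 and 279 CPM in control and 240, 143 and 206 in PS-NP. PS-NP 2 was the lowest library and control 3 the highest, and the groups overlap. The fitted log2 difference was −0.38 with an SE of 0.22, and it was −0.21 without PS-NP 2. A second 7SL piece, ssc-mir-1285-p5_1ss17TC, was at 5.32, 37.4 and 23.4 CPM in control and at 23.3, 11.6 and 21.6 in PS-NP, and control 1 alone was far below the rest.

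Other mouse RNAs supplied rarer names. The human name hsa-miR-1248_R-4 matched Snora81, an H/ACA small nucleolar RNA of the kind that guides the conversion of uridine to pseudouridine, at chr16:23110756-23110933 (GRCm38.p6), within its host gene Eif4a2. Its level was 3.12, 0.877 and 2.58 CPM in control and 2.10, 2.67 and 2.08 in PS-NP, with overlapping groups. Names of miR-9933 (marmoset) and miR-1417 (platypus) matched other small nucleolar RNA genes, a miR-4485 name matched the mitochondrial ribosomal RNA gene mt-Rnr2, and a miR-1246 name matched 12 small nuclear RNA genes. The cow name bta-mir-2887-1-p5 matched Gm23935 and 2 further genes, all annotated as miRNA genes. It was at 4.97, 28.7 and 13.5 CPM in control, and its PS-NP libraries lay within that range. In control 2 it was highest, as were the second 7SL piece and hsa-miR-1469_L-2_1ss10GC, a sequence of 95% GC that stood at 15.8 CPM there and at 1.73 to 5.10 in the other libraries.

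The labels' protocols state a filter against rRNA, tRNA, snRNA and snoRNA, and how it treated these sequences was not tested.

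The 41 sequences that differ from a mouse miRNA only in their ends were mostly longer at the 3′ end. Of them, 31 carried added 3′ bases and 10 added 5′ bases. A single T was the most common 3′ addition, in 7 sequences, and 14 of the 31 carried only A and T. Where the RefSeq hairpin could be read, the added bases were compared as a whole with its next letters. They differed in 27 of 27 sequences at the 3′ end and 9 of 9 at the 5′ end. A part of an addition may still match the hairpin. A form extended along the mouse hairpin could carry a mouse name and be left out here. The choice by name may therefore have fixed these counts. Added 3′ A and T are the known product of enzymes that tail miRNAs. Here 17 of the 31 also held G or C.

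The 5′ additions were of 1 kind for the most part. AA stood before the mouse sequence in 7 of the 10, with 1462 reads in all. Of the 12 members with an L+2 name, 8 began with AA, while 1 of 12 mouse-named L+2 sequences did. The level of oan-let-7b-5p_L+2 was 19.7, 9.80 and 14.5 CPM in control and 25.7, 15.2 and 9.14 in PS-NP. This is 0.153% to 0.302% of mmu-let-7b-5p, the let-7 miRNA it extends. The level of cja-miR-369-5p_L+2R-1 was 3.71 to 4.39 CPM in control and 3.45 to 4.53 in PS-NP, and that of dno-miR-433-3p_L+2 was 1.13 to 4.86 and 2.90 to 4.79. Both belong to the chromosome 12 cluster that also holds Mir485, and in all 3 the groups overlap. An AA at the start moves the seed, so these molecules do not share the seed of the miRNA they extend.

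The most abundant sequence with changed ends was bta-miR-150, a cow name for miR-150-5p, a miRNA known from lymphocytes, with a base added at its 3′ end. Its level was 316, 177 and 310 CPM in control and 259, 231 and 169 in PS-NP. Control 2 lay below PS-NP 1 and PS-NP 2, so the groups overlap, and the fitted log2 difference was −0.29. It stood at 10.9% to 15.7% of mmu-miR-150-5p in every library. The difference moves with single libraries, and it was −0.52 without control 2, −0.17 without control 3, −0.15 without control 1 and −0.14 without PS-NP 3.

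The opossum name mdo-miR-181a-5p_R+3 covers a pair of sequences that add TAT or TTT to miR-181a-5p, a miRNA encoded at chr1:137966468-137966490 and chr2:38852741-38852763 (GRCm38.p6) and abundant in brain. Their numbered entries carry the same value in each library, and 3 names with 7 sequences were built in this way. Such sequences may be 1 observation, but the TAT and TTT forms were tested as separate members. The TAT form was listed at 31.7, 24.6 and 34.8 CPM in control and 22.5, 33.4 and 11.4 in PS-NP. The TTT form stands on 2 lines that each carry this same value. Its sum was 63.3, 49.1 and 69.8 CPM in control and 45.0, 66.8 and 22.7 in PS-NP. That sum counts the shared value again and is no level of its own. PS-NP 3 was lowest and the groups overlap. The fitted log2 difference was −0.44 with an SE of 0.36, and it was −0.86 without PS-NP 2 and −0.14 without PS-NP 3. The summed value of the TTT form was 0.227% to 0.593% of mmu-miR-181a-5p.

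A Tasmanian devil name, sha-miR-125a_R+2, is the mouse miR-125b-5p with added bases, and miR-125b is among the most abundant miRNAs of these libraries. Its level was 47.9, 27.6 and 57.6 CPM in control and 63.6, 15.9 and 14.0 in PS-NP. PS-NP 1 was the highest of the 6 libraries, and the other PS-NP libraries were the lowest, so the PS-NP group spans the controls. The fitted log2 difference was −0.52 with an SE of 0.56, and it was −1.57 without PS-NP 1 and −0.18 without PS-NP 3. Leaving out PS-NP 2 (−0.21) or control 3 (−0.29) also moved it by over 1.5 times. In each library it was at most 0.0271% of mmu-miR-125b-5p.

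The level of chi-let-7a-5p_R+2, a goat name for an extended let-7a-5p, was 1.39, 0.877 and 0 CPM in control and 2.25, 2.34 and 1.27 in PS-NP, and its fitted log2 difference of 1.28 had an SE of 0.85. The groups overlap, and the difference was 0.75 without control 3 and 2.06 without control 1. The level of hsa-miR-378c_R-2_2ss21AG22GC, a form of miR-378a-3p, was 35.04, 41.5 and 51.0 CPM in control and 44.1, 43.6 and 44.6 in PS-NP, with a fitted log2 difference of 0.05. All its PS-NP values lay within the control range.

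Of the 33 sequences with 1 mismatch, 16 had it within the last 3 bases and 17 before them. Counted from the mouse letter to the listed letter, C to T (8) and T to C (7) were the most frequent changes, followed by G to A (5) and T to A (4). The leading counts hold repeats: 4 of the 7 T to C are miR-328 names laid against the same variant of mmu-miR-6395, and 3 of the 8 C to T are miR-2478 names laid against the same variant of mmu-miR-3968. By name family, C to T was found in 6, G to A in 5, and T to C and T to A in 4 each. An A to G change, the kind that RNA editing by ADAR gives, was seen in 2 sequences. Both are miR-378 names laid against the same variant of mmu-miR-378c, and hsa-miR-378g among them is a plain human name. The 9 with 2 mismatches had 5 at the end by the same measure.

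Outside the CCA families the most abundant sequence with mismatches was bta-miR-339a_1ss22CT, a form of miR-339-5p, which is encoded on the minus strand at chr5:139369708-139369730 (GRCm38.p6) in an intron of 3110082I17Rik. Its level was 49.1, 68.4 and 60.2 CPM in control and 39.0, 64.1 and 48.3 in PS-NP, 5.73% to 8.04% of mmu-miR-339-5p. A form with 1 base more, bta-miR-339a_R+1_1ss22CT, was at 43.0, 49.6 and 48.9 CPM in control and 42.2, 46.7 and 42.6 in PS-NP. The groups overlap in both, with fitted log2 differences of −0.23 and −0.10. The first was −0.078 without PS-NP 1, −0.12 without control 2, −0.35 without control 1 and −0.46 without PS-NP 2. The other stayed between −0.17 and −0.070 with any 1 library left out. The longer form was 4.72% to 6.53% of mmu-miR-339-5p.

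The opossum name mdo-miR-22-3p differs from mmu-miR-22-3p in its last base, and its level was 9.83, 8.77 and 13.4 CPM in control and 11.9, 9.57 and 13.8 in PS-NP. The tree shrew name tch-miR-26a-2-5p has its mismatch inside the molecule, against miR-26a-5p of the Ctdspl and Ctdsp2 introns. Its level was 5.67, 3.51 and 5.48 CPM in control and 6.75, 6.01 and 7.60 in PS-NP, 0.0106% to 0.0153% of mmu-miR-26a-5p. Every PS-NP library was above every control library, with a fitted log2 difference of 0.47, or 0.28 without control 2.

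The lowest unadjusted p among the members was that of the guinea pig name cpo-miR-16a-5p_R-1_1ss21TA. It is miR-16-5p, a miRNA known as a brake on cell cycle genes and encoded at chr3:69009918-69009939 in an intron of Smc4 and at chr14:61631936-61631957 in an intron of Dleu2 (GRCm38.p6), with a changed 3′ end. Its level was 20.2, 19.9 and 22.4 CPM in control and 29.7, 35.7 and 28.0 in PS-NP. Every PS-NP library was above every control library. The fitted log2 difference was 0.58 with a 95% interval of 0.10 to 1.06 and an unadjusted p of 0.0230, and the adjusted p was 0.906 by edgeR's quasi-likelihood test, so it did not pass.

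A goat name, chi-miR-16a-5p_1ss22GA, ends in AA and was at 11.1, 11.4 and 17.6 CPM in control and 17.7, 17.7 and 16.4 in PS-NP. There control 3 was level with the PS-NP libraries, and the groups overlap. The mouse-named mmu-miR-16-5p stood at 843 ± 272 CPM in control and 1007 ± 112 in PS-NP (SD, n = 3 each), with a fitted log2 difference of 0.26. The goat-named form was 1.47% to 1.82% of mmu-miR-16-5p, and cpo-miR-16a-5p_R-1_1ss21TA was 1.95% to 3.59% of it.

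Over the 41 tested members that have a mouse relative and lie outside the CCA families, the median level was 0.388% of the mouse sequence, with a range from 0.00161% to 600%. Of these, 26 were under 1% and 4 were over 10%. The high end of this range rests on which relative is the closest. The value of 600% belongs to cpo-miR-328-3p_R-2 laid against a variant of mmu-miR-6395 at 0.445 to 1.02 CPM, and it was 0.0539% of mmu-miR-328-3p. Likewise hsa-miR-151b_R+3 was 85.7% of its closest sequence but 0.0407% of mmu-miR-151-5p. The value of bta-miR-378_R+1_1ss22CA was 40.5% of its closest sequence but 0.787% of mmu-miR-378a-3p_R+1. Laid against the most abundant mouse-named sequence within 2 mismatches, a comparison chosen after the data were seen, the median was 0.212%, 30 of the 41 were under 1%, and bta-miR-150 at 13.7% was the only one over 10%.

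For the comparison of PS-NP with control, 66 of the 140 members had at least 10 reads in at least 3 libraries. The other 74 fell short of this, by low reads or by presence in too few libraries, and were not tested. The 66 held 98.8% of the members' reads. None passed an adjusted p of 0.05 by edgeR's quasi-likelihood test, 0 of 66, and none of all 639 tested sequences did (0%). The smallest adjusted p among the members was 0.906. At an unadjusted p under 0.05 there was 1 of 66 members (1.52%), against 15 of 639 sequences (2.35%), 9 of them higher in PS-NP (1.41%) and 6 lower (0.939%). Control and PS-NP libraries did not overlap in 2 of 66 members (3.03%), cpo-miR-16a-5p_R-1_1ss21TA and tch-miR-26a-2-5p, both higher in PS-NP, against 61 of 639 sequences (9.55%), 32 higher (5.01%) and 29 lower (4.54%). Both shares were under those of all tested sequences.

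The directions were divided. The fitted mean was higher in PS-NP for 31 of 66 members (47%) and for 306 of 639 sequences (47.9%). The median log2 difference was −0.01 over the members and −0.02 over all tested sequences. By relation to mouse the median was 0.05 for other ends, −0.01 for 1 mismatch, 0.28 for 2 mismatches and −0.18 for no relative. The members' estimates were wider, with a median half-width of the 95% interval of 1.01 against 0.64 over all tested sequences. For a typical member, a difference under this size would leave an interval that includes 0. The test adjusted over 639 sequences asks for more, so larger differences may also have been missed.

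**Figure D4:**
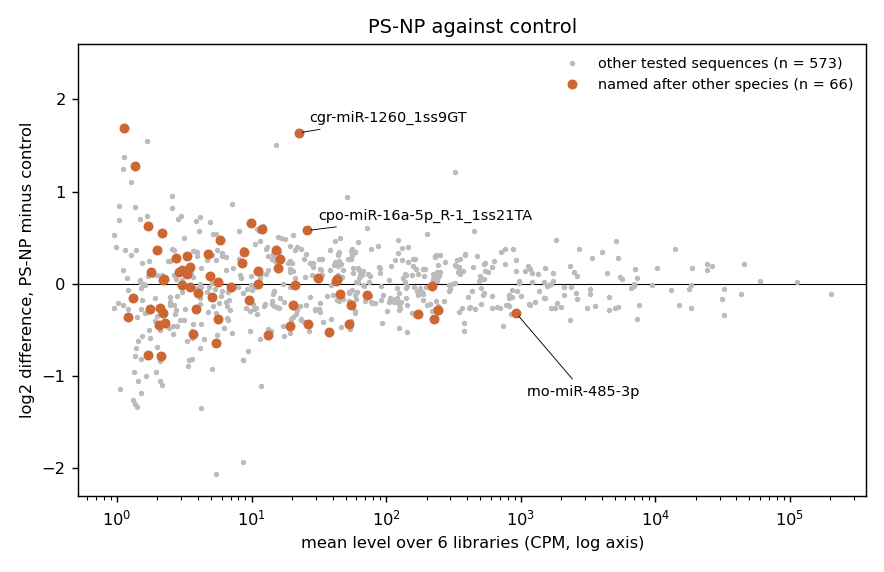
Fitted log2 difference, PS-NP minus control (vertical axis), against the mean level over 6 libraries (CPM, log axis) for the 639 tested sequences, with the 66 named after other species in orange. The members lie on both sides of 0 and none passed the test. The most raised labelled one, cgr-miR-1260_1ss9GT, rests on PS-NP 1.

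As a share of all reads, the 140 members took 0.268%, 0.325% and 0.235% in control and 0.232%, 0.244% and 0.246% in PS-NP. PS-NP 1 was lowest and control 2 highest, and the groups overlap because control 3 lies below PS-NP 2 and PS-NP 3. The means were 0.276% ± 0.0453 and 0.241% ± 0.00788 (SD, n = 3 each), with p = 0.3 in an exact two-sided permutation test whose smallest possible p is 0.1. Sequences with an ss name took 0.0352% ± 0.00896 in control and 0.0369% ± 0.00141 in PS-NP (exact permutation p = 0.9), and those without took 0.241% ± 0.0373 and 0.204% ± 0.00825 (exact permutation p = 0.3). By relation to mouse, the exact permutation p was 0.5 for other ends, 1 for 1 mismatch, 0.6 for 2 mismatches and 0.3 for no relative. Adjusted over the 4 classes, the smallest was 0.8.

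Presence in a single library was uneven. Of the 35 sequences with reads in 1 library, 11 were in control 3, 11 in PS-NP 1, 7 in PS-NP 3, 3 in PS-NP 2, 2 in control 1 and 1 in control 2. With numbered entries of 1 name counted as 1 observation there were 32, of which 10 were in control 3 and 9 in PS-NP 1. Mouse-named sequences found in 1 library were spread otherwise, with 10 in control 3 and 9 in PS-NP 1 but 22 in control 1 and 29 in PS-NP 3. The median member of this kind had 8 reads. The most abundant was dno-miR-708-3p_R-3 with 79 reads in control 1. By group, 17 members had reads in control libraries alone and 25 in PS-NP libraries alone. Most of these are the single-library members, with 11 of the 17 in control 3 and 11 of the 25 in PS-NP 1. The same count was not made over all sequences, so it is no measure of a group difference.

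**Figure D5:**
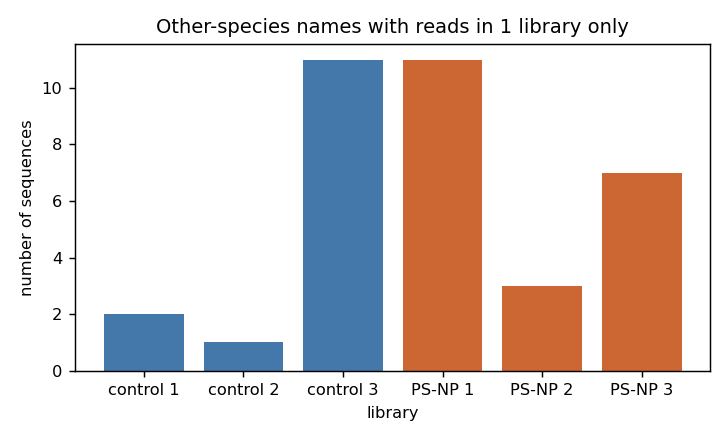
Number of members with reads in 1 library only (vertical axis) for each library (horizontal axis), with control in blue and PS-NP in orange. Control 3 and PS-NP 1 hold 11 each, and the other 4 libraries hold 1 to 7.

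In control 3 the names belonged to several families. Among them were hsa-miR-888-5p with 8 reads, its 3′ extended form with 12 and hsa-miR-891a-5p with 17, all from a miRNA cluster on the primate X chromosome that is known from human epididymis. The rest included cja-miR-429 with 20 reads, bta-miR-374a_R-1 with 13, cpo-miR-106a-5p with 12, hsa-miR-141-3p_R+2 with 9 and oan-miR-205-5p_R+3 with 5. None lay in a RefSeq mouse hairpin or a GENCODE transcript, and together they came to 18.9 CPM. Mouse-named miRNAs of epithelial cells, looked up after these values were seen, gave mixed levels: miR-141-3p was listed in control 3 alone at 9.84 CPM and miR-200c-3p was at 34.3 CPM there against at most 8.55 elsewhere. Levels of miR-200a, miR-200b, miR-429 and miR-205 were not highest in control 3. Where these reads came from was not tested.

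In PS-NP 1 the names were of another kind. Besides the 6 miR-1260 sequences there were oga-mir-195-p3 with 32 reads, 2 variants of oan-miR-124a-2-3p with 23 and 14, and 1 name each of the miR-1285 and miR-1386 families. Together they came to 31.5 CPM. The source of these reads was not tested.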

How the data were processed

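Total RNA of 6 prefrontal cortex samples was made into small RNA libraries and sequenced on an Illumina instrument, and the reads were filtered with ACGT101-miR, per the labels' protocols. The genome build, mapping settings and miRNA database release were not given in the sources used here. Per the file headers, the authors deposited a value marked raw and another marked norm for every line and library. Raw values are estimated counts, in which a sequence on several lines has its reads divided among them, from the values of the deposited table. The deposited norm values are a normalized signal, the raw value times 1 factor per library, used only for an alternative scaling. A further 3 lines were not analysed here.

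Lines of 1 sequence were summed and rounded. The tests had been planned for counts and were run on these rounded estimates. Those reaching 10 reads in 3 libraries or more were tested with edgeR 4.0.16 (quasi-likelihood, TMM factors 0.863 to 1.115, Benjamini-Hochberg at 0.05 over all 639). The script was checked on simulated data. CPM uses TMM-scaled totals, errors are SD, and intervals cover 95%. PS-NP is the group label of the nano-polystyrene samples.

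Members were compared with mouse-named sequences, with RefSeq mouse hairpins and mature miRNAs (GRCm38.p6) and with GENCODE vM21 transcripts by exact match. Printed sequences are from the deposited table, except the one credited to RefSeq. Coordinates come from these matches. Named members are the 12 of highest mean CPM, the 8 of lowest unadjusted p, the 6 most abundant with an ss name and the 6 most abundant without a mouse relative, and others were picked after their values were seen. The members, groups and lists were chosen with earlier results of these data known.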

Additional observations from a re-analysis of the deposited data

How the results depend on the processing

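No member and no sequence was called under any alternative: DESeq2's Wald test, limma-voom, other scalings (library totals, DESeq2 size factors, the authors' factors), filters, lines as listed, a GC correction, a replicate block, and each library left out. The fit with the replicate block had 2 members and 32 sequences at an unadjusted p under 0.05, against 1 and 15 without it. Same-numbered libraries correlated at 0.43, 0.15 and −0.17. Control 1 correlated best with the PS-NP library of its own number, while control 2 and control 3 did not. With so few libraries these correlations cannot decide whether the numbers pair them. Without a filter on low counts the smallest adjusted p among members was 0.479.

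Among repeated log2 differences and differences of shares, 341 kept their direction and 25 changed sign. With a library left out, the log2 difference ran from −0.39 to 0.29 for bta-miR-2478_L-2, from −0.67 to 0.034 for cgr-miR-1260, from −0.43 to 0.11 for hsa-miR-7977_1ss6AG, from −0.064 to 0.20 for hsa-miR-378c_R-2_2ss21AG22GC, from −0.31 to 0.25 for oan-miR-1386 and from −0.24 to 2.10 for cgr-miR-1260_1ss9GT. The sign also turned for bta-miR-2478_L-2 under limma-voom (0.13), the replicate block (0.14) and GC with the replicate block (0.14), for cgr-miR-1260 under GC with the replicate block (0.027), and for hsa-miR-7977_1ss6AG under GC (0.14) and GC with the replicate block (0.19). The difference in share of reads ran from −0.0552 to −0.0105 percentage points for all members, −0.00107 to 0.00691 for ss names, −0.00676 to 0.00761 for 1 mismatch and −0.000345 to 0.000707 for 2 mismatches. The cause was not tested.

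Depth limits the rare names, and a listed 0 is no proof of absence. The 74 of 140 that fell short of the filter on reads and libraries could not be tested. Reads of close relatives may be exchanged by sequencing errors, and the classes of relation to mouse depend on the mismatches allowed: with up to 3, the number without a relative fell from 57 to 41.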
